A study of Laccaria bicolor with 18 samples.

Results

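The 19 gene models described here are those whose transcripts rose late in both tissues of the *Laccaria bicolor* basidiocarp and ended at like levels in cap and stipe. They were chosen from 23130 gene models on the mean RPKM of each group, where RPKM is the read count scaled by transcript length and by the size of the library. The late cap mean had to be at least 3 times both the early and the medium cap mean, the late stipe mean at least 3 times both earlier stipe means, both late means at least 5 RPKM, and the late means within 2-fold of each other. The late rise and the even late levels are therefore the choice itself and are given below as a description, and where calls in those comparisons are counted, the count follows from the choice and supports nothing.

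RNA was sequenced from caps and stipes of early, medium and late basidiocarps of strain S238N, an ectomycorrhizal fungus, with 3 libraries for each of the 6 groups. The mushrooms grew in a nursery under Douglas fir seedlings that had been inoculated with the fungus, and cap and stipe were parted and frozen at harvest. No group carried a mutation or a treatment, and the submitters name the groups by tissue and stage only. Each library holds all cells of a cap or a stipe, and for every value below a change in the share of a cell type cannot be told apart from a change in RNA per cell.

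A basidiocarp is the sexual fruiting body of a mushroom-forming fungus. The cap carries the gills, where basidia go through meiosis and form spores, and the stipe lifts the cap and elongates mostly by cell extension. In ageing basidiocarps stipe growth ends, spores are shed and cell material can be broken down and moved between tissues. Oligopeptide transporters import small peptides, mannitol is a common storage sugar alcohol of fungi, and protein kinases pass on signals by adding phosphate to other proteins.

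The libraries held between 38976106 and 90888294 reads on gene models. Every one of the 19 members was among the 16485 gene models that passed the filter on low counts, and no member had a count of 0 in any library. The fewest reads in a member were 6, in gene model 705170 in medium cap 3. Medium stipes 1 and 2 and late caps 2 and 3 were nearly alike, with biological coefficients of variation of 4.16% and 4.05%, against 9.3% to 39.3% in the other pairs of a group. Medium stipe 3 stood apart from the other medium stipes, by 38.9% and 39.3%, and results that rest on it are given without it below.

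The tissue labels were checked on marker genes. The 11 gene models with a meiosis keyword had a higher mean in late caps than in late stipes in 7 cases. The clearest was 399758, at 64.4 RPKM in late caps and 11.9 RPKM in late stipes. The mean was higher in late stipes in 163010, 181297, 473733 and 633056. The gene model of eln3, named for stipe elongation in *Coprinopsis cinerea*, was at 64.0 RPKM in late caps and 13.6 RPKM in late stipes, and of the 3 eln3 and eln3-like gene models 2 were higher in caps. The eln3 genes thus did not mark the stipe in these data, and the meiosis list, higher in sum in late stipes, did not clearly mark the cap. The check therefore did not bear out the tissue labels, which are those of the sample titles. The summed RPKM of the 11 meiosis gene models was higher at the late stage in both tissues. It was 1922 to 2113 in early caps, 1816 to 2461 in medium caps and 2959 to 3198 in late caps, and 2019 to 2938, 2000 to 2872 and 3222 to 4113 in early, medium and late stipes. Much of the sum came from 1 gene model, 473733, at a mean of 1016 RPKM in early and 1720 in late caps and 1271 in early and 2197 in late stipes. Of the 11, the late mean was above the early mean in both tissues in 6 and below it in both in 5. None was at 0 in any library, and their part in the members' rise was not tested.

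A late rise was more often found in one tissue than in both. In caps 282 gene models met the bounds on ratio and level, and in stipes 106. The rises coincided in 33, which is 11.7% of the cap rises and 31.1% of the stipe rises. Of these 33, the late stipe mean was more than 2 times the late cap mean in 10 and the late cap mean more than 2 times the late stipe mean in 4, which left the 19 members. Another 249 gene models rose in caps only and 73 in stipes only.

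**Figure D1:**
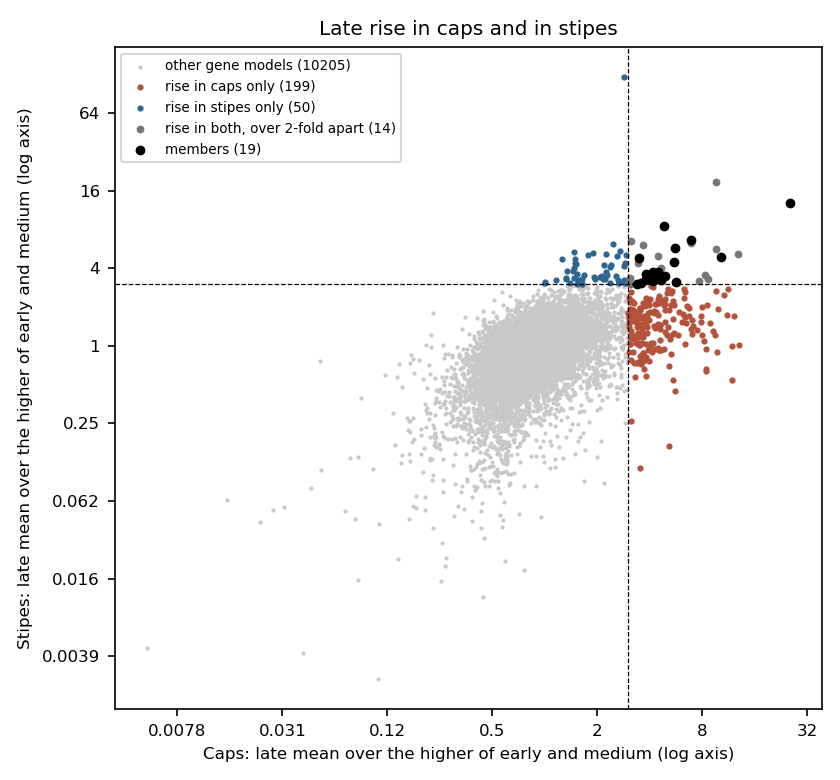
Each point is a gene model with a late mean of at least 5 RPKM in both tissues; the x axis is the late cap mean divided by the higher of the early and medium cap means, the y axis the same in stipes, both on log axes without units. The dashed lines mark the bound of 3, and the 19 members (black) lie beyond it in both directions, with 705170 farthest out in caps.

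The members just inside and the gene models just outside the bounds had nearly the same values. The smallest of the 4 late to earlier ratios was 3.04 in member 579337 and 3.08 in member 522030, and 2.93 and 2.92 in 334197 and 479528, which were left out. The late stipe mean was 1.99 times the late cap mean in members 634897 and 683022, and 2.18 and 2.24 times in 543626 and 458999 outside. At the bound on level, member 579337 reached 5.52 RPKM in late caps, and 576828 and 334214 reached 4.75 and 4.58 RPKM in their lower late tissue.

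On the log2 scale of edgeR, the median rise of the 19 was 2.41 from early to late caps (range 1.90 to 4.82) and 2.37 from medium to late caps (1.92 to 5.67). In stipes the medians were 2.27 (1.62 to 3.93) and 1.92 (1.62 to 6.03). All 19 passed the call, a log2 fold change above 1 with an adjusted p under 0.05, in all 4 of these comparisons, which the choice nearly fixes. Over all gene models tested, 9.27%, 9.17%, 7.63% and 6.2% were called higher in the 4 comparisons in that order, and 1.52% in all 4. Every late cap library lay above every earlier cap library in all 19. In stipes this held for 18, with 656382 as the exception. Over all gene models tested, libraries without overlap and with late higher were found in 22.7% for late against early caps, 24.4% for late against medium caps, 23.9% and 22.2% for the same in stipes, and 6.15% in all 4.

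**Figure D2:**
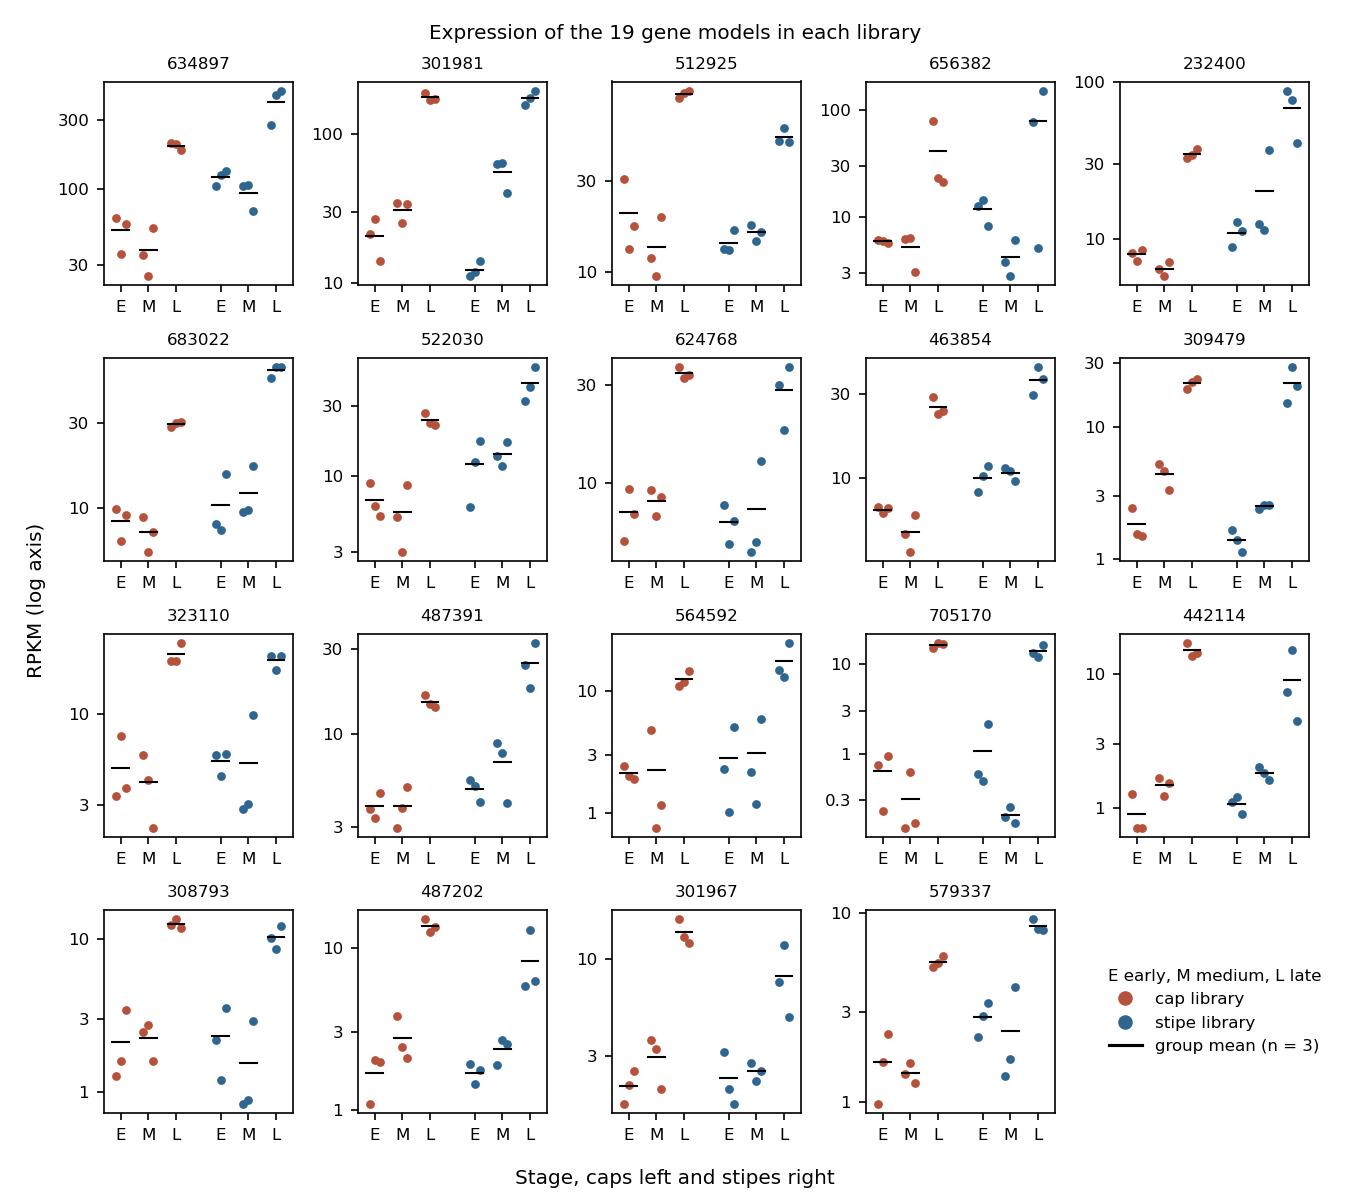
Each panel is a member, with the RPKM of the 18 libraries on a log axis, caps (red) on the left and stipes (blue) on the right at the early (E), medium (M) and late (L) stage, and lines at the means of 3 libraries. The late points stand above the earlier ones in both tissues in all panels but that of 656382, where late stipe 2 was at 5.06 RPKM.

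Among members with a named function, gene model 301981 encodes a transporter of the proton-dependent oligopeptide (POT, also PTR2) family, which carries small peptides into the cell with protons. It was also assigned a TGF-beta receptor domain in the study's annotation tables, beside the transporter domains. Its RPKM was 21.2, 26.9 and 14.1 in early caps, 34.2, 25.2 and 33.9 in medium caps and 189, 170 and 171 in late caps. In stipes its values were 11.1, 11.8 and 13.98 at the early stage, 62.6, 64.1 and 40.2 at the medium stage and 155, 176 and 195 at the late stage. Late caps and late stipes overlapped, and both lay above every earlier library. The late means were 177 ± 10.8 in caps and 175 ± 19.8 in stipes (SD, n = 3). The rise from early was 3.25 (SE 0.262) on the log2 scale in caps and 3.86 (SE 0.270) in stipes.

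The other gene models of the POT family in the annotation at hand, a comparison chosen after values were seen, did not share this pattern in full. The most abundant in late stipes, 312906, had mean RPKM of 238, 266 and 331 in early, medium and late caps and 256, 435 and 720 in the stipes. In 190652 the means were 114, 183 and 351 in caps and 294, 438 and 525 in stipes. In 250173 they were 59.2, 75.9 and 161 in caps and 71.9, 96.8 and 156 in stipes, and 668820 stayed at or under 4.12 RPKM in all groups. Thus 301981 was the lowest of the 4 abundant POT gene models in early stipes and reached the level of 250173 in late caps and stipes. Of the 4 non-members, 2 were called higher in late than in early caps (190652 and 250173) and 2 in late than in early stipes (250173 and 312906), and none in all 4 late comparisons.

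Gene model 232400 encodes a protein kinase that the annotation places in cell cycle control. Its RPKM lay between 5.82 and 8.53 in the 6 early and medium cap libraries and was 32.8, 34.6 and 37.6 in late caps. In stipes it was 8.93, 12.8 and 11.2 at the early stage, 12.5, 11.5 and 36.9 at the medium stage and 88.0, 77.3 and 41.2 at the late stage. Medium stipe 3 stood with the late caps and close to late stipe 3, so that 232400 is a member in which the late caps and the earlier stipes overlapped. The rise from medium was 2.41 (SE 0.351) in caps and 1.71 (SE 0.339) in stipes on the log2 scale, and without medium stipe 3 the stipe value was 2.45.

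Gene model 463854 has the core domain of mannitol dehydrogenases, enzymes that interconvert mannitol and a keto sugar. The annotation places it in the class of signal transduction, so its function rests on the domain alone. Its RPKM was 6.84, 6.30 and 6.73 in early caps, 4.77, 3.78 and 6.16 in medium caps and 29.2, 23.1 and 24.1 in late caps. The stipes had 8.29, 10.2 and 11.7, then 11.4, 11.0 and 9.68, then 29.6, 43.2 and 36.6. It was steady within groups and had the smallest standard errors of all members, with a rise from early of 2.11 (SE 0.186) in caps and 1.87 (SE 0.184) in stipes on the log2 scale. All late stipe libraries lay above all late cap libraries.

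Gene model 522030 encodes a SNARE associated Golgi protein, a family of membrane proteins. Its RPKM was 8.96, 6.18 and 5.29 in early caps, 5.24, 2.98 and 8.67 in medium caps and 27.1, 22.9 and 22.5 in late caps. Stipe values were 6.14, 12.5 and 17.4, then 13.6, 11.6 and 17.0, then 32.8, 41.0 and 56.1. The medium caps and the early stipes varied by more than 2-fold among themselves, and the lowest late stipe was still 1.88 times the highest earlier stipe.

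Both members with a predicted secreted protein, 309479 and 487202, are listed as small secreted proteins, a class of which some members in ectomycorrhizal fungi act on the host root. Gene model 309479 rose the more. Its RPKM was 2.46, 1.54 and 1.499 in early caps, 5.28, 4.67 and 3.32 in medium caps and 19.3, 21.6 and 23.1 in late caps. In stipes it was 1.66, 1.40 and 1.13, then 2.42, 2.55 and 2.57, then 15.0, 28.3 and 20.4. The late means were 21.3 ± 1.90 in caps and 21.2 ± 6.67 in stipes (SD, n = 3), and the rise from early was 3.71 (SE 0.269) and 3.93 (SE 0.272) on the log2 scale. Gene model 487202 rose from 1.08, 2.03 and 1.98 RPKM in early caps to 15.1, 12.4 and 13.4 in late caps. In stipes it rose from 1.90, 1.44 and 1.75 to 5.80, 12.8 and 6.19, with late stipe 2 at the level of the late caps and the other late stipes lower.

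The remaining members had no named domain in the annotation at hand. The most abundant member of all, 634897, was at 63.5, 35.8 and 57.9 RPKM in early caps, 35.3, 25.2 and 53.6 in medium caps and 208, 205 and 185 in late caps. In stipes it was at 105, 125 and 132, then 104, 107 and 71.2, then 275, 442 and 475. Its stipe libraries were above the cap libraries at every stage, and the late stipe mean was 1.99 times the late cap mean. The reverse order was found in 512925, at 81.3, 86.6 and 88.7 RPKM in late caps and 48.2, 56.7 and 47.8 in late stipes, up from 9.501 to 30.7 in the earlier libraries of both tissues.

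The transcript of gene model 705170 was scarce before the late stage, and its log2 rise was the largest of the 19 in 3 of the 4 late comparisons. In late against early stipes its rise, 3.75 (SE 0.526), was below those of 309479 and 301981. Its RPKM was 0.753, 0.226 and 0.940 in early caps, 0.148, 0.620 and 0.169 in medium caps and 15.1, 17.1 and 16.8 in late caps. Its stipe values were 0.593, 0.497 and 2.11, then 0.196, 0.254 and 0.169, then 13.3, 11.8 and 16.2. The late means were at least 12.9 times each earlier mean of the same tissue, and the log2 rise from medium was 5.67 (SE 0.601) in caps and 6.03 (SE 0.619) in stipes. The ratio of 12.9 is that to early stipes, of which early stipe 3 was the highest. Without early stipe 3 the log2 rise from early in stipes was 4.70, and without medium cap 2 that from medium in caps was 6.70. The counts behind these values were 6 to 97 reads in the earlier libraries and 422 to 1244 in the late ones.

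Gene model 442114, placed in the class of nuclear structure, followed by size of rise in caps. It went from 1.27, 0.710 and 0.702 RPKM in early caps over 1.66, 1.23 and 1.52 in medium caps to 17.1, 13.7 and 14.5 in late caps, a log2 rise from early of 4.26 (SE 0.341). In stipes it went from 1.10, 1.20 and 0.892 over 2.02, 1.82 and 1.62 to 7.33, 15.1 and 4.48, a log2 rise of 3.03 (SE 0.323). The late stipe libraries spanned more than 3-fold, and late stipe 2 reached the late caps.

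Gene model 656382 was the least reproducible member. It was at 5.68 to 6.02 RPKM in early caps and 3.04 to 6.36 in medium caps, and at 77.9, 23.2 and 21.3 in late caps. In stipes it was at 12.7, 14.3 and 8.25, then 3.75, 2.78 and 6.04, then 77.8, 5.06 and 151. Late stipe 2 was thus below all early stipes, and its late means, 40.8 ± 32.1 in caps and 77.9 ± 72.9 in stipes (SD, n = 3), had standard deviations near their own size; the cap mean rests on late cap 1. Without late cap 1 the log2 rise from early in caps was 2.10 in place of 2.97, and without late stipe 3 that in stipes was 1.79 in place of 2.83, and both calls were lost. Without late cap 1 or without late stipe 2 the bounds were no longer met.

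The other members without a named domain rose from low levels. In 683022 the RPKM was 28.2, 29.9 and 30.2 in late caps and 53.4, 61.4 and 61.0 in late stipes, against 5.68 to 17.1 before. In 624768 it was 36.8, 32.6 and 33.5 in late caps and 30.1, 18.1 and 36.8 in late stipes, against 4.61 to 12.7 before. In both, all late libraries of both tissues lay above all earlier ones. Gene model 323110 was at 19.9, 20.03 and 25.4 RPKM in late caps and 21.4, 17.6 and 21.4 in late stipes. Gene model 487391 was at 16.4, 14.7 and 14.2 in late caps and 24.3, 18.1 and 32.4 in late stipes.

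Late levels near 10 RPKM were reached by the rest. Gene model 564592 was at 11.1, 12.0 and 14.6 RPKM in late caps and 14.9, 13.2 and 25.1 in late stipes, with a coefficient of variation of 100% in medium caps. Its log2 rise from medium caps, 2.36 (SE 0.663), was 3.81 without medium cap 1 and 1.98, no longer called, without medium cap 2. Gene model 308793 was at 12.5, 13.7 and 11.8 in late caps and 10.2, 8.72 and 12.3 in late stipes. Gene model 301967, which stood in none of the annotation tables at hand, was at 16.4, 13.1 and 12.1 in late caps and 7.49, 11.8 and 4.84 in late stipes. The weakest, 579337, was at 5.19, 5.44 and 5.92 in late caps and 9.29, 8.15 and 8.08 in late stipes, up from 0.977 to 4.07 before. None of these 4 had a late library below an earlier one in either tissue.

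Considered together, every late library of both tissues lay above every earlier library of both tissues in 17 of the 19 members, the exceptions being 656382 and 232400. This uses the values that chose the members, and it was found in 2.97% of all gene models tested. Of the 4 ratios that set membership, the smallest was that to medium stipes in 10 members, to early stipes in 6, to medium caps in 2 and to early caps in 1. Closest to the bound on even late levels were 634897, 683022, 232400 and 656382, the late stipe mean being 1.99, 1.99, 1.97 and 1.91 times the late cap mean.

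The late levels of the members were even between tissues by choice, and the libraries showed how even. Late cap and late stipe libraries overlapped in 10 members, the stipes were all above the caps in 7 (634897, 232400, 683022, 522030, 463854, 487391 and 579337) and the caps all above the stipes in 2 (512925 and 301967). Of all gene models tested, 33.6% had the late stipes all above the late caps and 32.5% the late caps all above the late stipes.

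**Figure D3:**
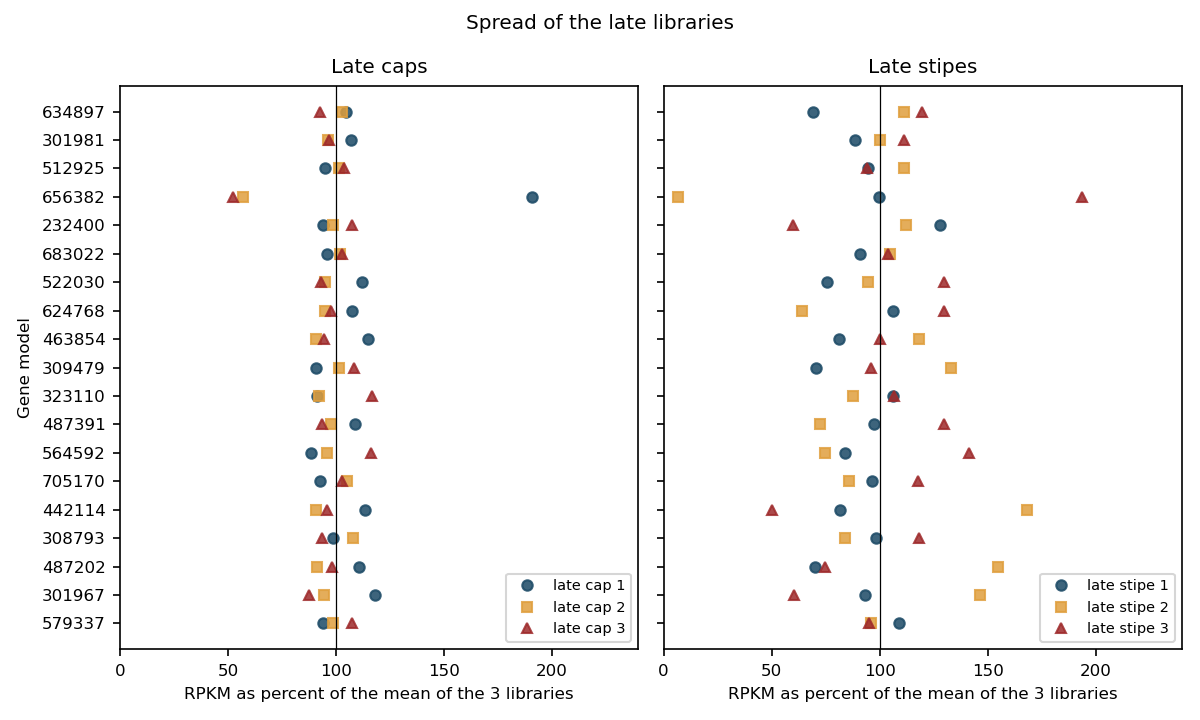
For each member (y axis), the RPKM of the 3 late cap libraries (left) and the 3 late stipe libraries (right) is plotted as a percentage of their mean, with a line at 100. Late caps cluster near the line except in 656382, while late stipes scatter more widely and late stipe 2 is the highest of its group in 442114, 487202 and 301967.

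Replicates agreed better in late caps than in late stipes. Late caps 2 and 3 were a nearly alike pair, at 4.05%, which lowers the late cap spread. Over all gene models tested, late cap 1 differed from them by 9.3% and 9.73%, against 17.8% to 24% between late stipes. The median coefficient of variation over the members was 7.88% in late caps and 27.3% in late stipes, against 6.99% and 17.8% over all gene models tested. It was 28.4% and 26.5% in early and medium caps, against 13% and 23.6% over all. In early and medium stipes it was 18.7% and 24.1%, against 16.9% and 18%. Late stipe 3 was the highest of its group in 10 members, late stipe 2 in 7 and late stipe 1 in 2. Without late stipe 2, 442114, 487202, 301967 and 512925 no longer met the bounds, nor did 656382.

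The comparisons before the late stage were not bounds of the choice. They were tested with edgeR's quasi-likelihood test and Benjamini-Hochberg adjustment over all gene models tested. The early and medium means did enter the choice, since each late mean had to be at least 3 times both. A gene model near its late level by the medium stage was thus left out, and the members are not a free sample for these comparisons. The first question was how many members had nevertheless begun to rise by the medium stage. In caps 1 of the 19 was called, against 2.03% of all gene models (1.08% higher). This was the small secreted protein 309479, higher in all medium than in all early caps, by 1.48 (SE 0.258, edgeR adjusted p = 0.00475) on the log2 scale. The median log2 change of the 19 was 0.02, the same as over all gene models tested, and 10 had a positive and 9 a negative value.

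In stipes 2 members were called, against 2.48% of all gene models (0.88% higher and 1.6% lower). The peptide transporter 301981 was higher in all 3 medium than in all 3 early stipes, by 2.22 (SE 0.252, edgeR adjusted p = 0.000143). Its change in caps over the same interval was 0.76 (SE 0.242, edgeR adjusted p = 0.0957). Gene model 705170 went the other way and was lower in all medium than in all early stipes, by -2.29 (SE 0.619, edgeR adjusted p = 0.0435), on counts of 10 to 14 and 27 to 97 reads. This call was lost with early stipe 3 left out, when the value was -1.35, and also without any 1 of the medium stipes or late caps, without early cap 1 and without late stipe 1. The median log2 change of the 19 was 0.22, against 0.03 over all gene models.

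A difference between tissues in the early to medium change was called in none of the 19 by edgeR, against 0.0182% of all gene models. The values lay between -1.47 (SE 0.342) in 301981 and 1.47 (SE 1.09) in 656382 on the log2 scale, with 11 positive and 8 negative. That of 232400 was -1.05 (SE 0.475), and in 301981 and 232400 the change was more positive in stipes. Without medium stipe 3 the value of 232400 was -0.30 and that of 301981 -1.66. DESeq2 called 1 member, 301981, at -1.46, and edgeR called it too without medium cap 3 or without medium stipe 3.

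**Figure D4:**
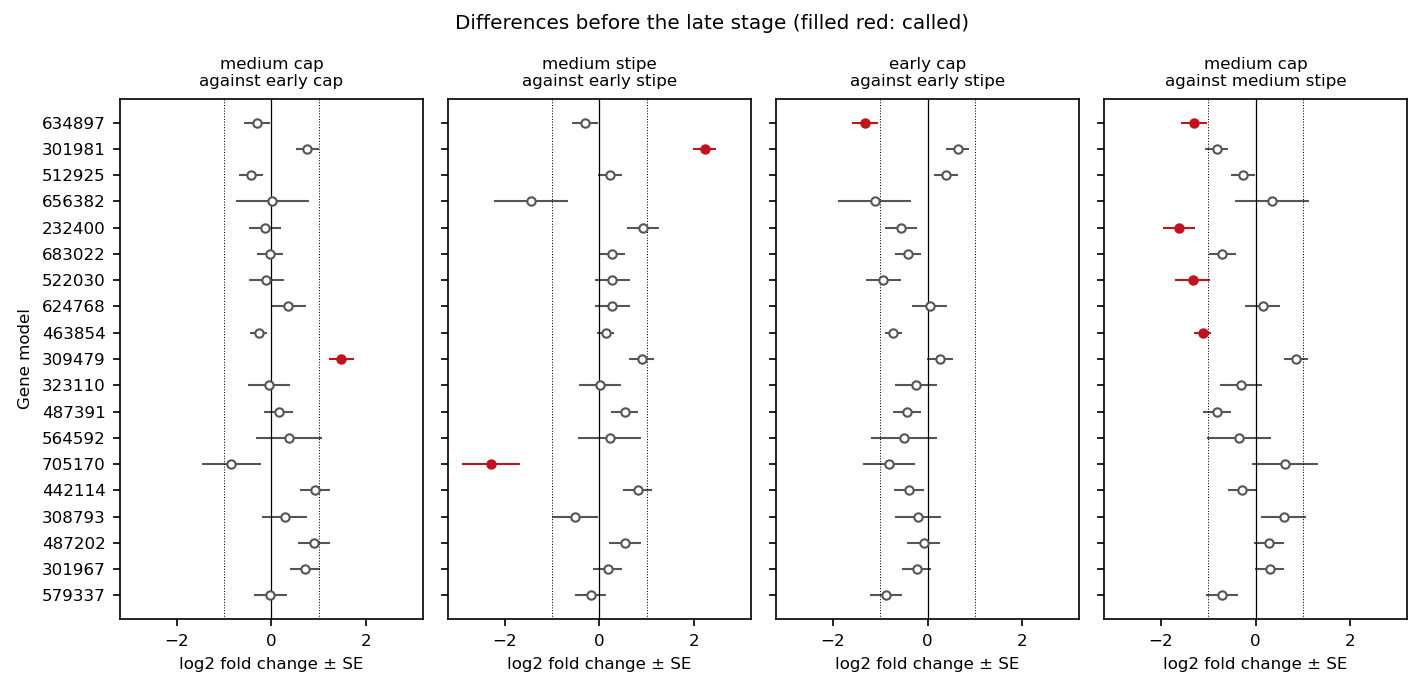
For each member (y axis), the log2 fold change (points) with its standard error (bars) is shown in 4 comparisons of early and medium groups. These were not bounds of the choice, though the means in them entered it. Dotted lines mark a log2 change of 1 in size, and filled red points passed the call. Called members number 1, 2, 1 and 4 from left to right, and in the 2 tissue comparisons all called points lie on the side of the stipe.

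The second question was whether the tissues differed before the rise. At the early stage 1 member was called, against 5.16% of all gene models (2.98% lower). Gene model 634897 was lower in all early caps than in all early stipes, by -1.33 (SE 0.274, edgeR adjusted p = 0.00585). Gene model 463854, with the mannitol dehydrogenase domain, was at -0.72 (SE 0.180, edgeR adjusted p = 0.0184), under the bound on size. The early cap value was below the early stipe value in 15 of the 19, with a median of -0.41, whereas 47.9% of all gene models had a negative value, with a median of 0.02. The gene models that rose in a single tissue leaned to the stipe as well, with values given below. The number 15 was the same under RLE scaling, under TMM without the 50 most abundant gene models and with DESeq2. At the medium stage the lean was weaker. The cap value was then below the stipe value in 12 of the 19, with a median of -0.31, against 50.5% and -0.01 over all gene models.

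At the medium stage 4 members were called, all lower in caps, against 5.05% of all gene models lower and 11.5% called in either direction. These were the kinase 232400, by -1.62 (SE 0.343, edgeR adjusted p = 0.00335), 634897, by -1.31 (SE 0.275, edgeR adjusted p = 0.00325), the SNARE associated Golgi protein 522030, by -1.33 (SE 0.374, edgeR adjusted p = 0.0153), and 463854, by -1.12 (SE 0.182, edgeR adjusted p = 0.000781). For 634897, 522030 and 463854 every medium stipe library lay above every medium cap library, and for 232400 likewise, with medium stipe 3 far above the other medium stipes. Under the bound on size, 309479 was higher in medium caps, by 0.85 (SE 0.249, edgeR adjusted p = 0.0185). Also under that bound, 301981 (-0.82, edgeR adjusted p = 0.0188) and 487391 (-0.82, edgeR adjusted p = 0.0464) were lower. Without medium stipe 3 the value of 232400 was -0.88 and the call was lost. Without medium cap 2 the calls of 522030 (-1.04) and 463854 (-0.98) were lost. Without medium stipe 3, 308793 was called higher in caps (1.43) and 301981 (-1.02) and 487391 (-1.09) lower, without medium cap 3, 309479 was called higher in caps (1.03), and without medium stipe 1, 579337 was called lower (-1.01). With only the 6 libraries compared, 634897 (-1.34), 232400 (-1.65) and 522030 (-1.35) kept their size but not the call.

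At the late stage none of the 19 was called between tissues by edgeR or DESeq2, which the bound of 2-fold nearly fixes, whereas 24.3% of all gene models were. Fold changes lay between -0.98 and 0.86 on the log2 scale.

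The gene models that rose in a single tissue were set beside the members in the same comparisons, and no difference between these sets was tested. Of the 249 that rose in caps only, 58 (23.3%) were already higher in medium than in early caps and 3 were lower, with a median log2 change of 0.55. Of the 73 that rose in stipes only, 1 was higher in medium than in early stipes and none lower, with a median of 0.16. The corresponding counts for the members were 1 of 19 in caps and 1 of 19 in stipes. Between tissues the medians of the sets were alike at the early stage and differed in sign at the medium stage. In early caps against early stipes the median was -0.30 for the rises in caps only (15.3% called lower) and -0.45 for the rises in stipes only (11% called lower), beside -0.41 for the members (5.26% called lower). In medium caps against medium stipes 20.5% of the rises in stipes only were called lower, beside 21.1% of the members, and 14.5% of the rises in caps only. Called higher were 20.5% of the rises in caps only, 6.85% of the rises in stipes only and none of the members. The medians there were 0.19 for the rises in caps only, -0.52 for the rises in stipes only and -0.31 for the members.

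Little was known of the members from sequence. Of the 19, 18 stood in the annotation tables at hand. In the largest of these, which holds gene models clustered over the basidiocarp stages, 4 of 17 members (23.5%) had a named domain, against 39.7% of 1990 gene models tested. With all the tables pooled, a named domain was listed for 4 of 18 members (22.2%) and for 22.5% of 6459 gene models. These pooled shares are not a like comparison. Of the 18 members 17 stood in the largest table, whereas of the 6459 gene models only 1990 did. A predicted secreted protein was listed for 2 of 18 (11.1%), against 4.29% of these 6459. Within the largest table it was listed for 1 of 17 (5.88%), against 2.56% of 1990. The transcript length implied by count and RPKM was 243 to 2685 bases with a median of 876, against 1038 over all gene models tested, and 13 members were shorter than that median.

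Functional lists made by keyword showed what else rose late in both tissues, counted as called higher in late than in early caps and stipes. Over all gene models tested, 3.01% were higher and 2.41% lower in both. That is not a like background, since the lists draw on the study's tables, which largely hold gene models it listed as regulated. Whether any list rose more often than other annotated gene models was not tested. Membrane carriers, which move solutes across membranes, rose in both in 12 of 43 and fell in none, and mobile element genes rose in 6 of 26 and fell in none. NACHT, ankyrin and WD40 proteins rose in 10 of 76 and fell in 1, CAZymes, enzymes that act on carbohydrates, rose in 20 of 143 and fell in 8, and predicted secreted proteins rose in 25 of 277 and fell in 17. Metal transport genes rose in 2 of 11 and fell in 1, and genes of amino acid and polyamine metabolism rose in 2 of 20 and fell in none.

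Among regulators, transcription factors rose in both tissues in 12 of 152 and fell in 2, and kinases and phosphatases rose in 15 of 273 and fell in 7. Oxidoreductases rose in 20 of 302 and fell in 16, and proteolysis and ubiquitin genes rose in 18 of 212 and fell in 6. Methyltransferases rose in 5 of 49 and fell in 4, folding genes rose in 3 of 32 and fell in 2, and DNA repair genes rose in 1 of 22 and fell in 1. Members of the 19 were found in the lists of carriers (301981), kinases (232400), oxidoreductases (463854) and secreted proteins (309479 and 487202) only. The tables at hand hold the first part of the annotation, so these shares cover the gene models listed there.

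In RefSeq's gene table of the earlier assembly 6 of the 19 could be matched by number. The peptide transporter 301981 and the unannotated 301967 stood 11 genes apart in the same run of rising positions. Of the genes in between, 1 was measured under its number, 301980, and it changed by -1.31 in late against early caps and by -0.33 in late against early stipes on the log2 scale.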

How the data were processed

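Caps and stipes at 3 stages were sequenced as 18 libraries from a stranded mRNA kit. Trimmed reads were mapped by the authors in CLC Genomics Workbench v8 against the *L. bicolor* v2 reference transcripts, with up to 10 hits per read. The authors deposited a raw count and an RPKM (per transcript length and library size) for each gene model. Unique and total reads were both determined per the study's methods. Which of them the deposited count is, and whether strand was used in counting, is not given in the sources used here, so near-identical copies and antisense transcripts can share reads. The submitters' processing notes name DESeq2.

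RPKM chose the members and gives the levels. The members and lists were chosen with earlier results of these data known. Counts were tested in R 4.3.3 with edgeR 4.0.16 (filterByExpr, TMM, glmQLFit and glmQLFTest on all 18 libraries with a mean for each group), with calls at an adjusted p under 0.05 and a log2 fold change above 1 in size. Nearly alike pairs still differed by more than counting noise and were kept as separate libraries; the labels call the samples biological replicates but not from how many mushrooms, so p-values measure the spread between these samples. Members named are the 10 most abundant late, the 8 with the largest smallest ratio, those with an annotated function, those called before the late stage and those nearest the bound; the others are given in brief. Keyword lists come from the first part of the study's annotation tables. Alternatives for the tests were DESeq2 1.42.0, RLE scaling, other filters, a replicate block, only the groups compared, nearly alike pairs summed and each library left out. Those for the choice were other bounds, medians in place of means, RPKM rescaled by TMM, nearly alike pairs averaged and each library left out. No sequence of the v2 gene models was used here.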

Additional observations from a re-analysis of the deposited data

How the results depend on the processing

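The number of members depends on the bounds: a ratio of 2 gave 96 (the 19 among them), a ratio of 4 gave 6, a late minimum of 1 RPKM gave 41 and late levels within 1.5-fold gave 8. Leaving out 1 library gave 14 to 22 members, and 7 members met the bounds whichever library was left out. With the median of the libraries in place of the mean, 19 gene models met the bounds, but only 10 of the members were among them. Lost were 634897, 301981, 512925, 656382, 232400, 683022, 487202, 301967 and 579337. With nearly alike pairs averaged, 19 met the bounds and 16 of them were members, with 232400, 683022 and 522030 lost. RPKM rescaled by TMM gave 21, the 19 among them. Members called in all 4 late comparisons numbered 18 to 19 with a library left out; 656382 was lost without late cap 1 or late stipe 3, and 564592 without medium cap 2. Without medium stipe 3 the log2 rise from medium to late stipes grew by over 1.5 times in fold in 308793 (3.57), 323110 (2.74), 564592 (3.40), 579337 (2.42) and 624768 (2.53), and without early stipe 3 that from early stipes in 564592 (3.52); 656382 had 3.26 from medium stipes without late stipe 3.

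With only the libraries of the groups compared, 0 members were called in medium against early caps (309479 at 1.44 lost) and 1 in medium against early stipes. In that setting 2 were called between early caps and stipes and 1 between medium caps and stipes (634897, 232400 and 522030 lost). The spread was then estimated from those libraries alone, and why the calls changed was not tested. With nearly alike pairs summed, 1 was called in medium against early stipes. DESeq2 called 1 member in the interaction of tissue and the early to medium change. With a library left out, calls numbered 1 to 2 in medium against early caps (2 without medium cap 3), 1 to 2 in medium against early stipes (705170 lost in 9 of 18 cases), 1 to 2 between early caps and stipes (2 without early stipe 1), 2 to 6 between medium caps and stipes (2 without medium cap 2, 6 without medium stipe 3), 0 to 1 in the interaction and 0 to 4 between late caps and stipes. The 4 arose without late stipe 2, with 442114 (1.35), 487202 (1.15) and 301967 (1.16) higher in caps and 656382 (-1.54) lower; 2 arose without late stipe 1, and 1 each without late stipe 3 and without late cap 1. None of the changes called before the late stage in the main fit, and none of the late rises, changed direction under any alternative run. Some changes that were not called did. Late caps against late stipes in 656382 went from -0.98 to 0.08 without late stipe 3, and medium against early caps in 564592 from 0.37 to -1.05 without medium cap 1.

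The replicate numbers gave no sign of pairing the samples: correlations of same-numbered deviations lay between -0.501 and 0.317, and not every sample was nearest to its own number. With 3 libraries in a group this cannot show whether a cap and a stipe of the same number came from the same mushroom. With the number as a replicate block, 1 member was called in medium against early stipes, 705170 (-2.18) being lost, and no other member's call changed in the comparisons before the late stage. Low counts limit 705170 before the late stage.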
